A study of Rattus norvegicus with 129 samples.

Results

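Phenobarbital (PB) changed the RNA of rat liver after 1 dose and after 5 daily doses, and the comparison described here asks which of its early effects persisted, which grew and which faded. It rests on 40 of the 129 arrays of the series, chosen by the sample labels alone: 10 PB rats and 10 vehicle rats after 5 doses, and 10 PB rats and 10 vehicle rats after 1 dose, 5 of each sex in every set. The rats were Sprague-Dawley, kept one to a cage on chow, and were dosed by gavage with 100 mg/kg PB or with the vehicle alone, which was 0.5% methylcellulose in water with 1% Tween 80. Livers were taken 24 h after the only dose or 24 h after the last of the 5. Ages are not given in the labels. For each gene the difference between PB and vehicle rats after 1 dose was subtracted from the difference after 5 doses, and this value is called the interaction below. The 5-dose and 1-dose rats are different animals sampled at different times after their first dose, so the number of doses cannot be told apart from that time or from everything the vehicle rats also went through, repeated gavage included.

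PB is a barbiturate and the textbook inducer of drug metabolism in liver. It acts on the constitutive androstane receptor (CAR), a nuclear receptor of hepatocytes that moves into the nucleus, pairs with the retinoid X receptor and binds upstream of its targets, while the pregnane X receptor (PXR) shares many of those targets. The best known targets are the CYP2B enzymes, other cytochromes P450, their electron donor POR, conjugating enzymes and export pumps. CAR is also known for dampening genes of glucose production and fat burning in liver, and for the growth of the organ and of its smooth endoplasmic reticulum when treatment goes on.

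RNA was labelled with biotin and hybridised to one-colour arrays with 8740 probe sets besides the controls. Levels are given as log2(value + 16) after quantile normalisation of the 40 arrays, so that 4.00 is the floor. A step of 1 is a 2-fold change for well expressed genes. Near the floor the same step stands for a larger fold change of the value, so differences there are understated. Each gene is represented by its brightest probe set among those with a single symbol, which gave 4736 genes, and it was called where limma's adjusted p over all probe sets was under 0.05. The mean deposited intensity per array lay between 159.4 and 453.2, each array's levels correlated with the mean of its group at 0.9619 to 0.9842, and no arrays were identical. The labels of sex held: the male-specific P450 Cyp2c13 lay at 10.70 to 11.88 (median 11.42) in the 20 males and at 4.35 to 5.69 (median 4.82) in the 20 females. The summed level of 13 hepatocyte markers, albumin and transthyretin among them, was 16.20 to 16.29 after 5 doses of PB, 16.26 to 16.35 in their vehicle rats, 16.19 to 16.33 after 1 dose of PB and 16.24 to 16.36 in theirs. In whole liver, fewer cells of a type and less RNA per cell cannot be told apart. The rats are separate animals, so the spread between arrays holds both animal and array error.

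After 5 doses of PB, 180 genes were higher (3.8% of those tested) and 164 lower (3.46%) than in vehicle rats, and after 1 dose 145 were higher (3.06%) and 162 lower (3.42%). The interaction called 36 genes as higher (0.76%) and 32 as lower (0.676%). Over probe sets it called 119 (1.36%), with 909 under 0.05 before adjustment. The count of probe sets was 67 with each array scaled to a common median in place of quantile normalisation, 73 without the term for sex, 0 in the males alone and 30 in the females alone. Median scaling also moved the share of higher calls among probe sets to 60.6% after 5 doses, against 50.8% with quantile normalisation, and to 61.7% after 1 dose, against 48.9%. Leaving out 1 array at a time kept between 53 and 68 of the 68 genes, and 50 genes kept their call whichever array was left out. The median standard error over all genes was 0.18 for the interaction and 0.13 for the effect of 1 dose.

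Genes fell into 3 classes by these calls. An effect persisted in 104 genes, called with the same sign at both times and not called in the interaction, of which 64 were higher and 40 lower. It grew or came late in 36, called after 5 doses with an interaction of the same sign (17 higher, 19 lower). It faded in 33, called after 1 dose with an interaction of the opposite sign (14 that had been higher, 19 that had been lower). In 3 genes, Eci1, Acaa2 and Fabp5, both held, since PB differed from vehicle in opposite directions at the 2 times. A further 168 genes were called after 1 dose alone and 204 after 5 doses alone without an interaction, and for these no difference between the times is shown. The interaction shares its arrays with both effects, so the classes sort the genes and are no second test. With single arrays left out the classes held 87 to 109, 27 to 42 and 24 to 40 genes.

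**Figure D1:**
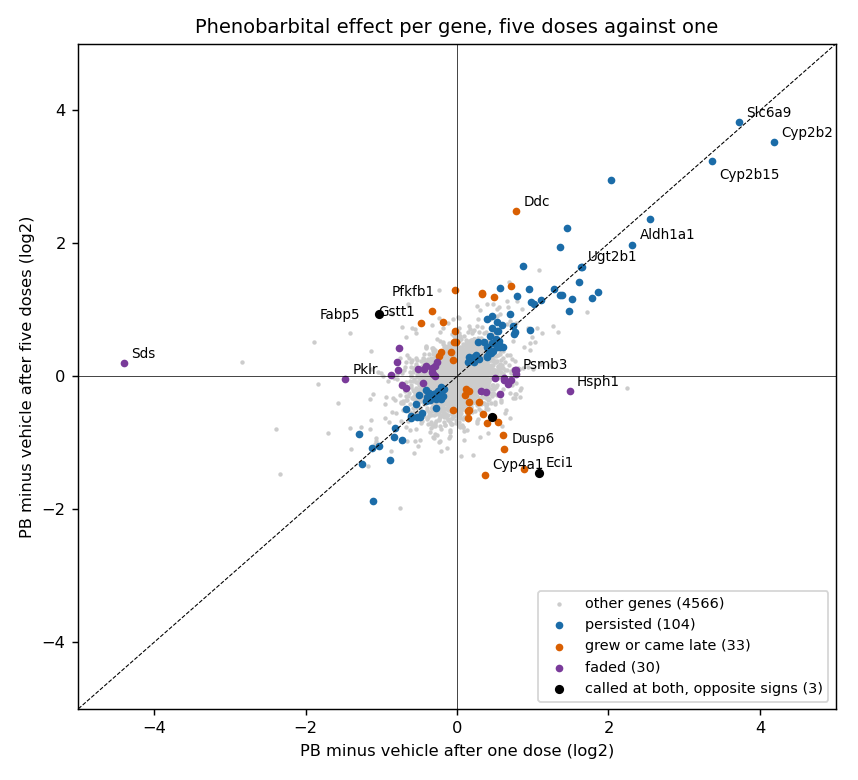
Each point is 1 of 4736 genes, with the PB minus vehicle difference after 1 dose on the x axis and after 5 doses on the y axis, both in log2, and the dashed line marks equal effects. The 104 persisted genes lie along the line with the Cyp2b genes at the top right, faded genes such as Sds lie near the horizontal axis, and late genes near the vertical one. The 3 genes called with opposite signs are drawn apart, so 33 and 30 points remain in the other classes.

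Effects on the CYP2B genes persisted. Cyp2b2, a P450 that serves as the standard readout of CAR, lay at 12.47 to 12.92 (median 12.69) after 5 doses of PB, against 8.07 to 10.25 (median 9.23) in vehicle rats. After 1 dose it lay at 12.49 to 12.88 (median 12.72) in PB rats and 7.36 to 9.52 (median 8.53) in vehicle rats. The PB and vehicle ranges stood apart at both times, while the ranges of PB rats after 5 doses and after 1 overlapped. The effect was 3.52 ± 0.19 (SE, 11.5-fold) after 5 doses and 4.18 ± 0.19 (18.1-fold) after 1, and the interaction of -0.66 ± 0.27 was not called (adjusted p = 0.33). Its neighbour in sequence Cyp2b15 had effects of 3.25 ± 0.11 and 3.36 ± 0.11, with an interaction of -0.12 ± 0.15. Near-identical CYP2B genes can share a probe set's signal, so these are read as the family and not as single genes.

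Several other drug-metabolism genes were also called at both times. Ugt2b1, which attaches glucuronic acid to drugs and steroids, lay at 10.50 to 11.24 (median 11.01) after 5 doses of PB, against 8.86 to 9.80 (median 9.28) in vehicle rats. The corresponding levels after 1 dose were 10.79 to 11.23 (median 10.96) and 8.65 to 10.06 (median 9.25). No PB rat overlapped a vehicle rat, and the interaction was 0.02 ± 0.19, with effects of 1.65 after 5 doses and 1.63 after 1. Aldh1a1, a retinal dehydrogenase, had effects of 1.98 ± 0.19 and 2.31 ± 0.19 at the same times. For Por, which feeds electrons to every microsomal P450, they were 1.22 ± 0.20 and 1.38 ± 0.20. Nqo1, a quinone reductase, gave 1.43 ± 0.23 and 1.60 ± 0.23, and Mdm2, the ligase that holds p53 down, 0.69 ± 0.12 and 0.96 ± 0.12. Each of these passed at both times, and none passed in the interaction.

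For some persisted genes the interaction was sizeable but missed the adjusted threshold. Alas1, the first enzyme of haem synthesis and so of the P450 cofactor, was at 9.60 to 10.78 (median 10.27) after 5 doses of PB, against 7.94 to 9.72 (median 9.16) in vehicle rats. After 1 dose PB rats were at 10.03 to 11.24 (median 10.78) and vehicle rats at 8.46 to 9.61 (median 8.84). The ranges of PB rats after 5 doses and after 1 overlapped, with an interaction of -0.61 ± 0.27 (adjusted p = 0.38). Abcc3, a pump that exports glucuronides into the blood, had effects of 2.24 ± 0.22 after 5 doses and 1.45 ± 0.22 after 1 (interaction 0.79 ± 0.31, adjusted p = 0.29). By sex the interaction of Abcc3 was 1.66 in males and -0.08 in females, and that of Alas1 was -0.09 and -1.13. A difference between the sexes was called for neither gene. Gsta3, a glutathione transferase, had 2.95 ± 0.30 and 2.03 ± 0.30 (interaction adjusted p = 0.43). Cyp3a23-3a1, a P450 under PXR, had 1.16 ± 0.11 and 1.52 ± 0.11, and it was also higher in vehicle rats after 5 doses than in vehicle rats after 1 (0.52 ± 0.11, adjusted p = 0.0049). Slc6a9 and Grm5, named by the array annotation after a glycine transporter and a glutamate receptor, were among the largest persisting rises, at 3.82 and 2.36 after 5 doses and 3.72 and 2.55 after 1. Among the persisting falls was Egfr, the receptor of epidermal growth factor, which PB is known to bind, with -0.42 ± 0.11 and -0.55 ± 0.11. Vdr, the vitamin D receptor, had -1.87 ± 0.32 and -1.10 ± 0.32, of which the second was not called with any of 5 single arrays left out (adjusted p up to 0.074).

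Of 16 measured phase 1 genes under CAR or PXR, 10 were higher after 5 doses and 10 after 1, beside 3.8% and 3.06% of all genes. Of the 16, 8 persisted and 1, Ephx1, passed in the interaction. The list's median effect was 0.82 after 5 doses and 0.62 after 1, beside 0 over all genes. Across the 104 persisted genes the effect after 5 doses was the larger in 54 and the smaller in 50, and the median sizes were 0.55 and 0.53. Their interactions ran from -0.76 to 0.92, so at this precision a persisted gene may still have changed by an amount of that order.

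A smaller set of metabolism genes rose late. Gstt1, a theta-class glutathione transferase, lay at 7.02 to 7.85 (median 7.52) after 5 doses of PB and at 5.93 to 6.89 (median 6.53) in vehicle rats, without overlap. After 1 dose the order was the other way, with 6.11 to 7.23 (median 6.53) in PB rats and 6.50 to 7.27 (median 6.96) in vehicle rats, and here the ranges overlapped. The effect was 0.98 ± 0.12 after 5 doses and -0.33 ± 0.12 after 1, of which the second was not called. The interaction of 1.31 ± 0.17 had the smallest adjusted p of the 68 genes (3.0e-05, limma). It was made of 0.84 between the PB sets and -0.47 between the vehicle sets, both called. Gsta4, which clears lipid aldehydes, had 1.24 ± 0.13 against 0.33 ± 0.13 (interaction adjusted p = 0.0044). After 5 doses all 10 PB rats lay above all vehicle rats for both genes. Of 26 measured conjugation genes, 12 were higher and 5 lower after 5 doses, beside 3.8% and 3.46% of all genes. After 1 dose 5 were higher and 1 lower, beside 3.06% and 3.42%. In the interaction 0.76% of all genes were higher, and of the 26 conjugation genes 2 passed. That last count was 5 without the vehicle female 1511 of the 5-dose set and 4 without the PB male 4012 of that set. The 5 that fell after 5 doses were the sulfotransferases Sult1a1, Sult2a1, Sult2a2 and Sult2a6 and Papss2, which makes their sulfate donor, and they changed by -0.33 to -0.68.

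Ephx1, the microsomal epoxide hydrolase and a known CAR target, was the phase 1 gene whose effect grew. It lay at 11.84 to 12.49 (median 12.18) after 5 doses of PB, against 10.15 to 11.26 (median 10.98) in vehicle rats. After 1 dose it lay at 11.75 to 12.39 (median 12.01) in PB rats and 11.12 to 11.70 (median 11.28) in vehicle rats. PB and vehicle rats did not overlap at either time, and the interaction was 0.65 ± 0.14 (adjusted p = 0.0094). The PB rats themselves differed by 0.17 ± 0.10 between 5 doses and 1 (adjusted p = 0.51), while the vehicle rats differed by -0.48 ± 0.10 (adjusted p = 0.0039). Most of the interaction of Ephx1 was therefore a lower level in vehicle rats.

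Tkt, the transketolase of the pentose phosphate pathway, likewise passed with an interaction of 0.71 ± 0.16 (adjusted p = 0.011), in 1 of its 2 probe sets. Tkt was at 8.91 to 9.73 (median 9.25) in PB rats after 5 doses and 8.96 to 9.69 (median 9.33) after 1, and at 7.67 to 8.55 (median 8.15) in vehicle rats after 5 doses and 8.55 to 9.30 (median 8.83) after 1. Every vehicle rat of the 5-dose set lay below every vehicle rat of the 1-dose set, and the PB sets overlapped. Tkt, Taldo1, the transaldolase of the same pathway, and Ephx1 were the 3 of 17 measured NRF2 targets, genes of the oxidant response, that passed in the interaction. In the interaction 0.76% of all genes were higher. Of the same 17, 8 were higher after 5 doses, beside 3.8% of all genes. After 1 dose 10 were higher and 1, Hmox1, lower, beside 3.06% and 3.42%. In vehicle rats 5 were lower after 5 doses than after 1, beside 1.31%.

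App was called between the PB sets and not between the vehicle sets, while other late rises were mixed. App, the amyloid precursor protein gene, was at 9.11 to 10.17 (median 9.53) after 5 doses of PB, above all 10 PB rats after 1 dose (8.07 to 9.01 (median 8.52)). Vehicle rats were at 8.12 to 8.75 (median 8.31) and 7.59 to 8.47 (median 8.28) in the same order of times, and overlapped. The interaction was 0.92 ± 0.18 (adjusted p = 0.003), with 1.07 ± 0.12 between the PB sets and 0.15 ± 0.12 between the vehicle sets. Ldhd, which oxidises D-lactate, and Pfkfb1, the liver enzyme that sets fructose bisphosphate, had effects of 0.82 ± 0.11 and 1.30 ± 0.17 after 5 doses and of -0.18 and -0.03 after 1. Their interactions, 1.00 and 1.32, were not called without the term for sex (adjusted p = 0.20 and 0.071). Between 5 doses and 1 Ldhd differed by 0.62 ± 0.11 in PB rats and -0.38 ± 0.11 in vehicle rats, and Pfkfb1 by 0.64 ± 0.17 in PB rats and -0.69 ± 0.17 in vehicle rats. Pfkfb1 had 4 probe sets, of which 1 passed. The largest late rise was that of Ddc, which decarboxylates L-DOPA, at 2.48 ± 0.26 after 5 doses and 0.78 ± 0.26 after 1. Its interaction of 1.70 ± 0.37 had an adjusted p of 0.011 and of 0.12 in a fit over all arrays of the PB and PCN study, and its level differed by -1.47 between the vehicle sets. Sec61b, of the channel that takes proteins into the endoplasmic reticulum, had an interaction of 0.54 (adjusted p = 0.0061, or 0.30 in the same wider fit), with 0.11 between the PB sets and -0.42 between the vehicle sets.

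Some genes of fat burning were lower with PB after 5 doses. Cyp4a1, the fatty acid hydroxylase that is the standard target of PPAR alpha, lay at 7.51 to 9.96 (median 9.01) after 5 doses of PB, against 9.65 to 11.24 (median 10.38) in vehicle rats. After 1 dose PB rats were at 8.52 to 10.37 (median 9.23) and vehicle rats at 8.10 to 10.04 (median 9.14). PB rats overlapped vehicle rats at both times, but 8 of 10 lay below all vehicle rats after 5 doses. The effect was -1.48 ± 0.24 (adjusted p = 4.3e-05) after 5 doses and 0.37 ± 0.24 (adjusted p = 0.47) after 1, with an interaction of -1.85 ± 0.33 (adjusted p = 0.0021). All 3 probe sets of the gene passed.

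In Cyp4a1, Decr1, Hadhb and Abcb4 the difference was larger between the vehicle sets than between the PB sets. Between 5 doses and 1, Cyp4a1 differed by 1.40 ± 0.24 in vehicle rats (adjusted p = 3.1e-04) and by -0.45 ± 0.24 in PB rats (adjusted p = 0.42). For Decr1, an auxiliary enzyme of the mitochondrial oxidation of unsaturated fatty acids, these values were 0.85 ± 0.10 and 0.08 ± 0.10, and every vehicle rat of the 5-dose set lay above every one of the 1-dose set. Hadhb, the beta subunit of the trifunctional protein of that pathway, had 0.83 ± 0.14 and -0.08 ± 0.14, and its interaction of -0.91 had an adjusted p of 0.014, or of 0.052 with median scaling. Abcb4, which moves phospholipid into bile, had 0.89 ± 0.15 and -0.21 ± 0.15. The PB effects on these 3 genes after 5 doses were -0.63, -0.57 and -0.70 in the same order, and after 1 dose 0.15, 0.34 and 0.40, the last 3 not called.

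Of 20 measured genes of mitochondrial fatty acid oxidation, 6 passed in the interaction as lower, Decr1, Eci1, Hadha, Hadhb, Acadvl and Acaa2. In that list 8 were lower after 5 doses of PB, and after 1 dose 3 were higher (Eci1, Slc25a20 and Acaa2) and 1 lower (Acadm). In vehicle rats 8 were higher after 5 doses than after 1. The median effect was -0.39 after 5 doses and 0.07 after 1, and the median shift was -0.01 in PB rats and 0.31 in vehicle rats. Of all genes, 54 were higher (1.14%) and 62 lower (1.31%) in vehicle rats after 5 doses than after 1. Over all genes 0.676% were lower in the interaction and 3.46% lower after 5 doses of PB. After 1 dose 3.06% were higher and 3.42% lower. Among 19 measured PPAR alpha targets, 7 were lower after 5 doses, 1 was higher and 2 lower after 1, 8 were higher in vehicle rats after 5 doses than after 1, and 3 passed in the interaction, or 5 without the vehicle male 1011, the vehicle female 1511 or the PB male 4012 of the 5-dose sets. Food intake, fasting and the hour of sampling are not given in the labels, and their part was not tested.

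Dusp6 and Alad differed between the PB sets, and Lcat between the vehicle sets. Dusp6, the phosphatase that damps ERK signalling, was at 5.14 to 7.19 (median 5.99) after 5 doses of PB, against 6.42 to 7.51 (median 7.06) in vehicle rats. After 1 dose it was at 6.44 to 7.56 (median 7.17) in PB rats and 5.87 to 7.17 (median 6.27) in vehicle rats. PB rats were the higher set after 1 dose, without a call, and the lower set after 5, and 8 of 10 PB rats of the 5-dose set lay below all PB rats of the 1-dose set. The interaction was -1.71 ± 0.29 (adjusted p = 0.0015), and both probe sets of the gene passed. Alad, which makes the pyrrole unit of haem in the step after Alas1, fell by 0.39 after 5 doses, with 0.16 ± 0.08 after 1 and an interaction of -0.55 ± 0.11. Lcat, which esterifies cholesterol in plasma, was at 10.63 to 11.15 (median 10.87) after 5 doses of PB, below every vehicle rat (11.20 to 11.54 (median 11.33)). Its effect was -0.50 ± 0.06 after 5 doses and -0.05 ± 0.06 after 1, and its interaction of -0.45 ± 0.08 was not called with median scaling (adjusted p = 0.16). Its vehicle sets differed by 0.29 ± 0.06, which was called, and its PB sets by -0.16 ± 0.06, which was not.

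Among the effects that faded, the largest was on Sds, the serine dehydratase that feeds serine into glucose production. After 5 doses it lay at 9.27 to 11.75 (median 10.73) in PB rats and at 7.34 to 11.75 (median 11.19) in vehicle rats. After 1 dose it lay at 4.00 to 9.17 (median 4.77) in PB rats, 5 of them at the floor of the scale, against 8.08 to 11.86 (median 10.81) in vehicle rats. Every PB rat of the 5-dose set was above every PB rat of the 1-dose set, and after 5 doses PB and vehicle rats overlapped throughout. The effect was 0.20 ± 0.68 after 5 doses and -4.40 ± 0.68 after 1, and the interaction was 4.60 ± 0.97 (adjusted p = 0.0072) with all 3 probe sets called. Values at the floor understate how low the level was. Tat, which starts tyrosine breakdown and is a classical glucocorticoid target, had effects of 0.09 ± 0.13 and -0.79 ± 0.13 at the same times. Its PB rats were at 10.12 to 11.05 (median 10.53) after 5 doses and 9.01 to 10.42 (median 9.67) after 1, and its vehicle rats at 10.10 to 10.92 (median 10.39) and 10.04 to 10.90 (median 10.56). Of 29 measured genes that break down amino acids or form urea, 1 was higher and 6 lower after 5 doses, and 9 were lower after 1 dose. In the interaction 3 passed, Sds, Otc and Tat, all higher. Otc belongs to the late class, with -0.24 after 1 dose, not called, and 0.30 after 5 doses, called. Over all genes 3.8% were higher and 3.46% lower after 5 doses, 3.42% lower after 1 dose and 0.76% higher in the interaction.

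Among genes of glucose handling, 9 of 15 measured were lower after 1 dose. Slc2a2, the main glucose carrier of hepatocytes, was at 9.15 to 10.05 (median 9.46) after 5 doses of PB and 8.87 to 10.14 (median 9.52) in vehicle rats, which overlapped. After 1 dose PB rats were at 8.17 to 9.56 (median 9.14), below every vehicle rat (9.58 to 10.23 (median 9.90)). Its effects were 0.03 ± 0.15 after 5 doses and -0.88 ± 0.15 after 1. Pdk1, which switches off pyruvate dehydrogenase, had 0.22 ± 0.14 and -0.80 ± 0.14. In Pklr, the liver pyruvate kinase, the PB rats lay at 6.09 to 7.78 (median 6.94) after 5 doses and 6.64 to 7.36 (median 6.88) after 1. The vehicle rats were at 5.32 to 8.02 (median 7.02) after 5 doses and 8.04 to 9.23 (median 8.31) after 1, without overlap. The interaction of Pklr was 1.43 ± 0.31, made of a vehicle difference of -1.43 ± 0.22 (adjusted p = 1.3e-04) and a PB difference of 0.00 ± 0.22. Of 15 measured genes of glucose metabolism, 9 were lower after 1 dose, 1 was higher and 2 lower after 5 doses, and 4 passed in the interaction, all higher. Pfkfb1, one of these 4, is a late rise and not a fall that faded. Over all genes 3.42% were lower after 1 dose, 3.8% higher and 3.46% lower after 5 doses, and 0.76% higher in the interaction. The median effect of the 15 was -0.04 after 5 doses and -0.42 after 1. Pck1, the gatekeeper of glucose production, was among the 9 with -1.15 ± 0.22, and its -0.34 ± 0.22 after 5 doses was not called, nor was its interaction (adjusted p = 0.29).

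The rises that faded included genes of the proteasome, the complex that degrades tagged proteins. Psmb3, a subunit of its core, lay at 9.21 to 9.69 (median 9.31) after 5 doses of PB and 9.01 to 9.79 (median 9.23) in vehicle rats, which overlapped. After 1 dose PB rats were at 9.63 to 10.94 (median 9.90), above every vehicle rat (9.09 to 9.56 (median 9.28)). The effect was 0.03 ± 0.12 after 5 doses and 0.77 ± 0.12 after 1, with an interaction of -0.74 ± 0.17 (adjusted p = 0.015) from 1 of its 2 probe sets. The PB sets differed by -0.70 ± 0.12 (adjusted p = 4.7e-04) and the vehicle sets by 0.04 ± 0.12. Psmc3, an ATPase of the cap, had -0.05 ± 0.13 after 5 doses and 0.71 ± 0.13 after 1, and its interaction of -0.76 had an adjusted p of 0.019, or of 0.063 with median scaling.

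Of 24 measured proteasome genes, 18 were higher after 1 dose, by 0.26 to 0.80, against 3.06% of all genes, and 0 passed in either direction after 5 doses. In limma's test of the interaction 7 passed, all lower, at -0.53 to -0.79, against 0.676% of all genes. By sex these 7 interactions were -0.22 to -0.68 in males and -0.84 to -1.16 in females. Each was larger in size in females, and no difference between the sexes was called. In PB rats 9 were lower after 5 doses than after 1, against 51 of all 4736 genes, while 0 passed between the vehicle sets. The 7 were 4 without the vehicle female 1514 or the PB female 4514 of the 5-dose sets, or without the PB female 4506 of the 1-dose set. The median effect was 0.09 after 5 doses and 0.52 after 1.

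Of the heat shock chaperones, which refold damaged proteins, 5 of 12 measured were higher after 1 dose. Hsph1, a nucleotide exchange factor of HSP70, had -0.22 ± 0.29 after 5 doses and 1.49 ± 0.29 after 1, with an interaction of -1.71 ± 0.41 (adjusted p = 0.022, or 0.054 in the fit over all arrays of the PB and PCN study). Of the 2 probe sets of Hsph1, 1 passed. Its PB rats lay at 5.49 to 7.82 (median 6.96) after 5 doses and 6.53 to 8.44 (median 7.12) after 1, and its vehicle rats at 6.12 to 8.40 (median 6.98) after 5 doses and 5.08 to 6.95 (median 5.78) after 1. The vehicle rats of the 1-dose set were the low set, and the other sets overlapped widely. Hsp90ab1, the constitutive HSP90, had -0.27 ± 0.12 and 0.57 ± 0.12, and all 4 of its probe sets passed in the interaction (-0.84 ± 0.17). Fkbp4, an HSP90 partner of steroid receptors, had -0.69 ± 0.17 and 0.54 ± 0.17, of which the effect after 5 doses was called. Of the 3 probe sets of Fkbp4, 2 passed in the interaction. Of the 12, 2 were lower after 5 doses (Fkbp4 and Hspb1, or 4 without the PB female 4515), and 4 passed in the interaction, all lower. Over all genes 3.06% were higher after 1 dose, 3.46% lower after 5 and 0.676% lower in the interaction. Between the vehicle sets 1.14% of all genes were higher. In vehicle rats 2 of the 12, Hsph1 and Hsp90ab1, were higher after 5 doses than after 1, by 1.31 and 0.50.

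Heat shock factor binds inverted repeats of a short unit, and 3 such units (GAA, TTC and GAA, with NN between neighbours, or TTC, GAA and TTC on the other strand) were searched in the 250 bases before the start of transcription in RefSeq's GRCr8 promoters. The motif stood in 222 of 33469 promoters (0.663%), in 3 of the 11 heat shock genes matched (Hsph1, Hspe1 and Hspd1), in 0 of 23 proteasome genes and in 1 of 29 promoters of faded genes, that of Hsph1. The promoters of Hsph1 (chr12:10427118-10427367, plus strand) and Hspe1 (chr9:64084077-64084326, plus strand) are shown with the matches in capitals, since these are members of the chaperone group that carry it. The match of Hsph1 begins 36 bases before the start, and the 2 overlapping matches of Hspe1 begin 65 and 60 bases before it.
Hsph1: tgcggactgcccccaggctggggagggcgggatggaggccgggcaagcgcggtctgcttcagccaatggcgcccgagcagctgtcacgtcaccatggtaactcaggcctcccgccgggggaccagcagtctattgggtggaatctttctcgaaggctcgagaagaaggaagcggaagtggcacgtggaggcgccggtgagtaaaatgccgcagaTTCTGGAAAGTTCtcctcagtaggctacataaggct
Hspe1: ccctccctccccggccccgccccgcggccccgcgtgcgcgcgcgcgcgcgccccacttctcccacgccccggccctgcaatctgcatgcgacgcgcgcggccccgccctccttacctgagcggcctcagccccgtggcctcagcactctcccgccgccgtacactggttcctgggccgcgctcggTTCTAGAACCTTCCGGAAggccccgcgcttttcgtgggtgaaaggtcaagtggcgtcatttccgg
A match is a run of letters and not a bound site. Hspe1 and Hspd1, which share this promoter, were both higher after 1 dose of PB and did not pass in the interaction.

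**Figure D2:**
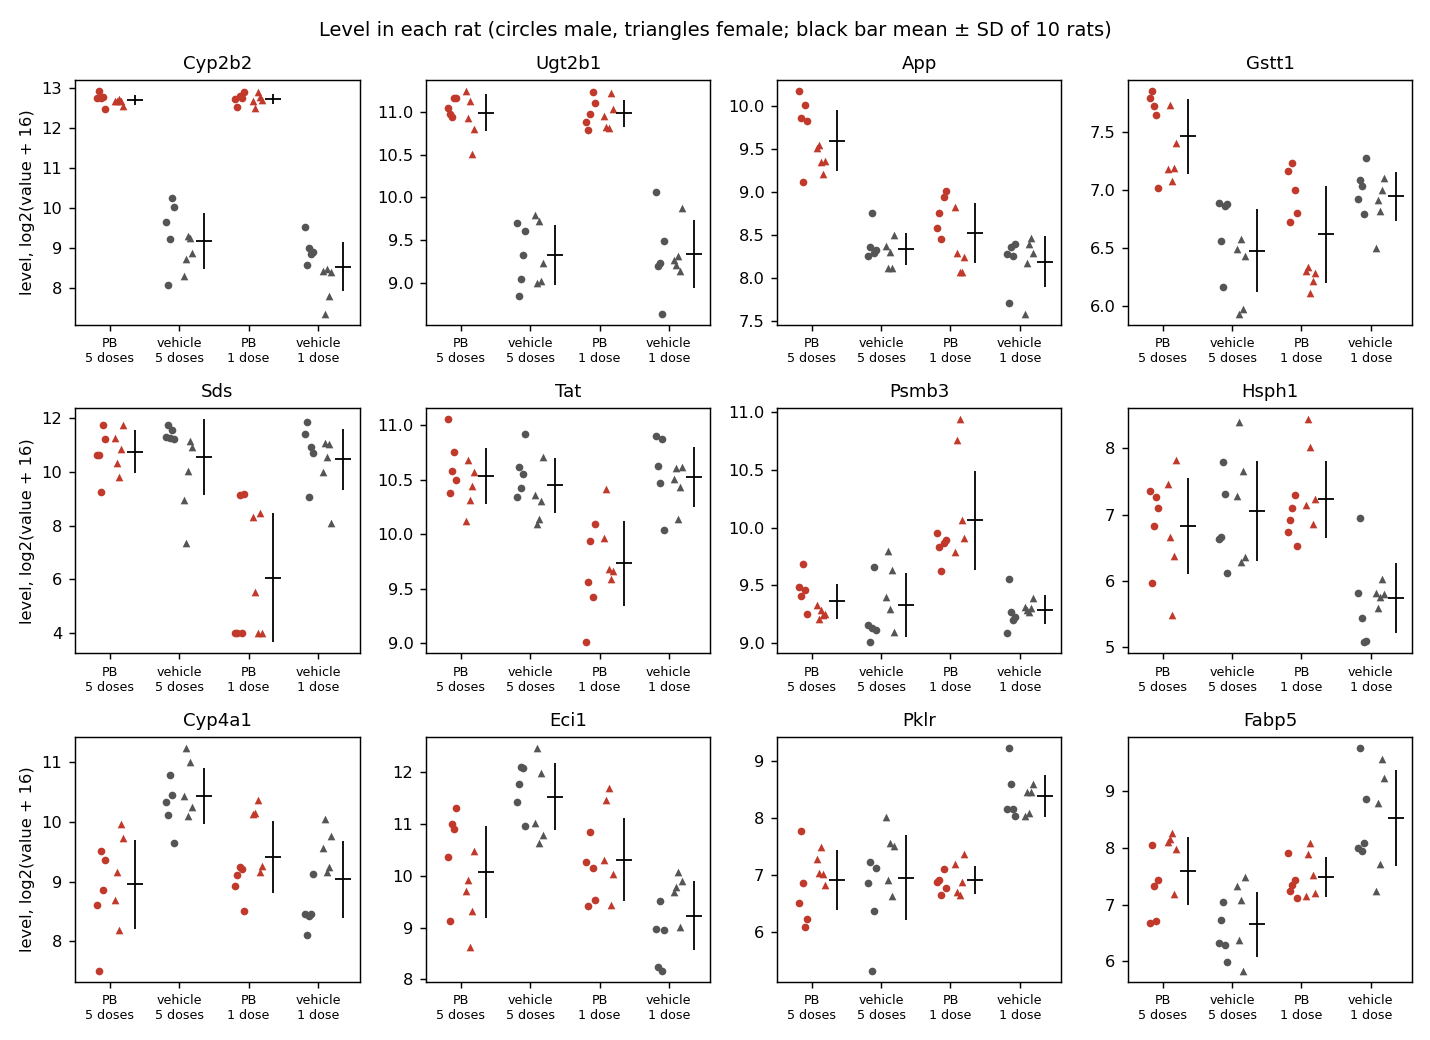
Each point is the level, log2(value + 16), of 1 gene in 1 rat, for PB and vehicle rats after 5 doses and after 1, with circles for males, triangles for females and bars for mean ± SD of 10 rats. Cyp2b2 and Ugt2b1 are high in PB rats at both times, Sds, Tat and Psmb3 depart from vehicle after 1 dose alone, and the 2 sets of vehicle rats stand apart in Eci1 and Pklr and overlap in Cyp4a1, where 9 of 10 lie above all of the 1-dose set.

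Effects of opposite sign at the 2 times were called in 3 genes. Eci1, an isomerase of mitochondrial fatty acid oxidation, was at 8.62 to 11.30 (median 10.15) after 5 doses of PB, against 10.62 to 12.47 (median 11.60) in vehicle rats. After 1 dose it was at 9.42 to 11.69 (median 10.20) in PB rats and 8.17 to 10.06 (median 9.27) in vehicle rats. The 2 vehicle sets did not overlap, and the 2 PB sets did. The effects were -1.45 ± 0.34 and 1.08 ± 0.34, and the interaction was -2.53 ± 0.48 (adjusted p = 0.0029), with 2 of 4 probe sets called. Acaa2, the thiolase of the same pathway, had -0.62 ± 0.14 and 0.47 ± 0.14, and Fabp5, a fatty acid carrier, 0.94 ± 0.27 and -1.03 ± 0.27. Their vehicle sets differed by 2.29, 0.83 and -1.88 in the order named, and their PB sets by -0.24, -0.26 and 0.10. The call after 1 dose was lost with any of 22 single arrays left out for Eci1 (adjusted p up to 0.12) and any of 9 for Acaa2 (up to 0.094), and that after 5 doses with any of 5 for Fabp5 (up to 0.060).

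Over all 68 genes of the interaction, PB rats differed between 5 doses and 1 with a call in 33 and vehicle rats in 32. The vehicle difference was the larger in size in 31, and its sign opposed the interaction in 63. The vehicle difference is subtracted to form the interaction, so such opposition is in part built in. Of the genes with more than 1 probe set, 31 in number, 11 had every probe set called and 16 only 1.

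**Figure D3:**
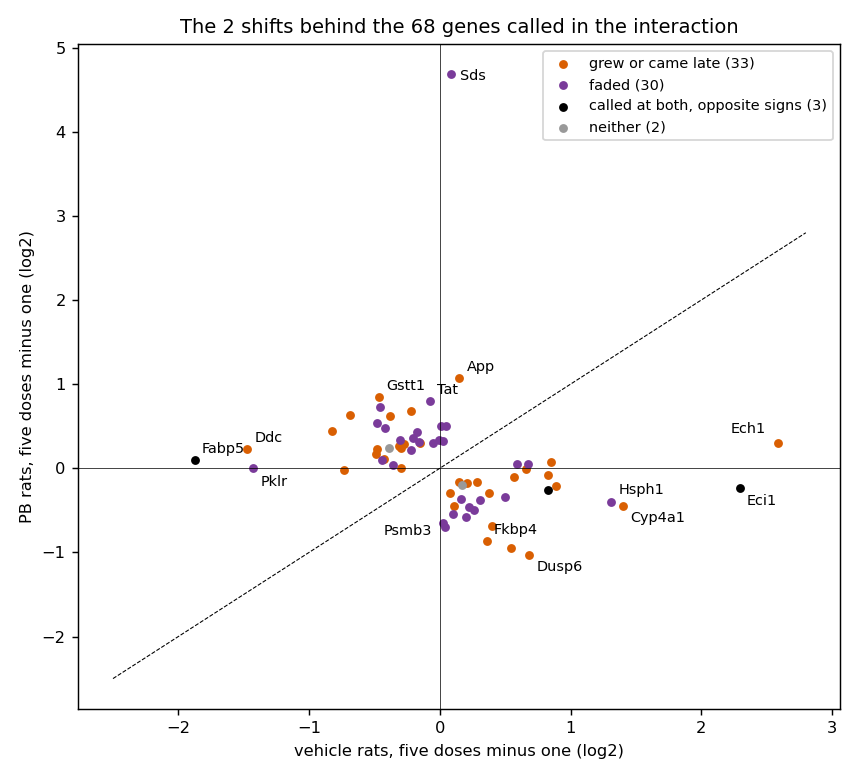
Each of the 68 genes called in the interaction is placed by the difference between 5 doses and 1 in vehicle rats (x axis) and in PB rats (y axis), in log2, and the dashed line marks equal differences. App, Gstt1, Tat and above all Sds stand high through the PB rats, while Fabp5, Ddc, Pklr, Cyp4a1 and Eci1 lie far to the sides near the horizontal axis, where the vehicle rats differed and the PB rats hardly did.

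Other lists had unequal counts at the 2 times without a call in the interaction, so no difference between the times is shown for them. In cholesterol synthesis 11 of 14 measured genes were higher after 5 doses, by 0.47 to 1.60, and 2 after 1 dose, Idi1 and Lss. Of all genes 3.8% and 3.06% were higher at those times, and 1.31% were lower between the vehicle sets. In limma's interaction 0 of 14 passed, although all 14 values were above 0, with a median of 0.34. The median effect was 0.78 after 5 doses and 0.45 after 1. In vehicle rats 8 of the 14 were lower after 5 doses than after 1 (5 without the vehicle male 1012 of the 5-dose set), and the median differed by -0.74, against -0.41 in PB rats. Idi1, an isomerase of the isoprenoid unit, had 1.31 ± 0.28 and 0.95 ± 0.28, and its call after 1 dose was lost with any of 6 single arrays left out (adjusted p up to 0.069). In fatty acid synthesis 5 of 13 were lower in vehicle rats after 5 doses, Scd, Acly, Insig1, Me1 and Fasn. Of the 13, 0 passed in limma's interaction, and 1 to 3 did with any of 16 single arrays left out. Scd, the stearoyl-CoA desaturase, had 0.21 ± 0.60 after 5 doses and -2.84 ± 0.60 after 1, and its interaction of 3.05 ± 0.86 missed the threshold (adjusted p = 0.068).

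Of 24 measured genes of cell division, 5 were higher after 5 doses, by 0.46 to 1.09 (Top2a, Tuba1b, Stmn1, Dut and Cdk1), 0 after 1 dose and 0 in the interaction, of which the last was 2 without the PB male 4008 of the 1-dose set. Over all genes 3.8% were higher after 5 doses and 3.06% after 1. Cdk1, the kinase that drives mitosis, had 0.99 ± 0.21 after 5 doses and 0.31 ± 0.21 after 1, and the difference was not called (adjusted p = 0.37). At 6 h 1 of the 24 was higher, beside 15 of all 4736 genes. Tuba1b was lower in vehicle rats after 5 doses than after 1, by -0.49, beside 1.31% of all genes. The median of the list was 0.05 after 5 doses and 0.08 after 1, with values from -0.62 to 1.09 after 5 doses. Of 17 complement and coagulation genes, 1 was higher and 6 lower after 1 dose, beside 3.06% and 3.42% of all genes, at -0.17 to -0.46 for those lower.

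**Figure D4:**
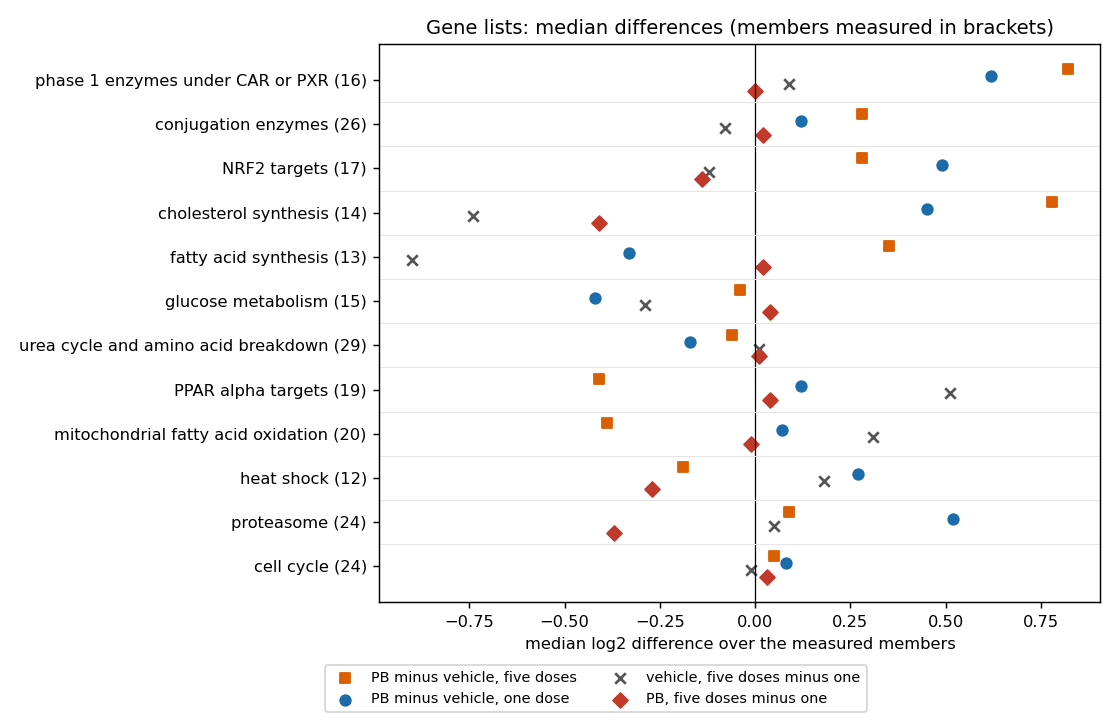
Medians over the measured members of 12 gene lists are drawn in log2 for the PB effect after 5 doses and after 1 and for the difference between 5 doses and 1 in vehicle and in PB rats. The proteasome list sits at 0.52 after 1 dose and 0.09 after 5, the lists of fat burning turn below 0 after 5 doses while the vehicle difference lies above 0, and cholesterol synthesis lies above 0 at both times beside a vehicle difference of -0.74.

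The test of a difference of the interaction between the sexes called 0 probe sets (381 under 0.05 before adjustment). In the fit with both sexes kept apart, 0 probe sets passed in males and 90 in females. Sds had an interaction of 4.01 in males and 5.20 in females. Psmb3 had -0.32 and -1.16, Hsph1 -1.24 and -2.18, and Gstt1 0.97 and 1.65 in the same order. In Cyp4a1 the values were -1.99 and -1.71, and in Pfkfb1 1.35 and 1.30. The number series of the rats (males as x0xx, females as x5xx) coincides with sex, so any handling by series cannot be told apart from sex.

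The study also held rats killed 6 h after 1 dose, with 10 PB and 9 vehicle arrays used and other animals than those above. The vehicle array of rat 1003 correlated with its group at 0.6318, against 0.9557 to 0.9618 for the others, and was left out. At 6 h, 42 probe sets passed, 22 with that array included and 24 to 69 with any other single array left out. Cyp2b2 stood at 3.58 ± 0.27 at 6 h, 4.18 ± 0.19 at 24 h and 3.52 ± 0.19 after 5 days. Ugt2b1 was at 0.86 ± 0.20, 1.63 ± 0.13 and 1.65 ± 0.13, of which the first was not called. The later fading genes had no call at 6 h: Hsph1 was at -1.08 ± 0.53, Psmb3 at 0.05 ± 0.10 and Tat at 0.37 ± 0.13. Dusp6 was at -1.26 at 6 h, 0.62 at 24 h and -1.09 after 5 doses, and Fkbp4 at -1.12, 0.54 and -0.69. For both genes only the last value was called. Of the 104 persisted genes, 83 had the same sign at 6 h as at 24 h and 8 were called. Of the 33 faded genes 23 had the sign of their 24 h effect and 0 were called, by limma at an adjusted p under 0.05. Of the 36 late genes 17 had the sign of their effect after 5 doses and 0 were called. Over all 4736 genes only 23 were called at 6 h, so 0 calls do not set these 2 classes apart.

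**Figure D5:**
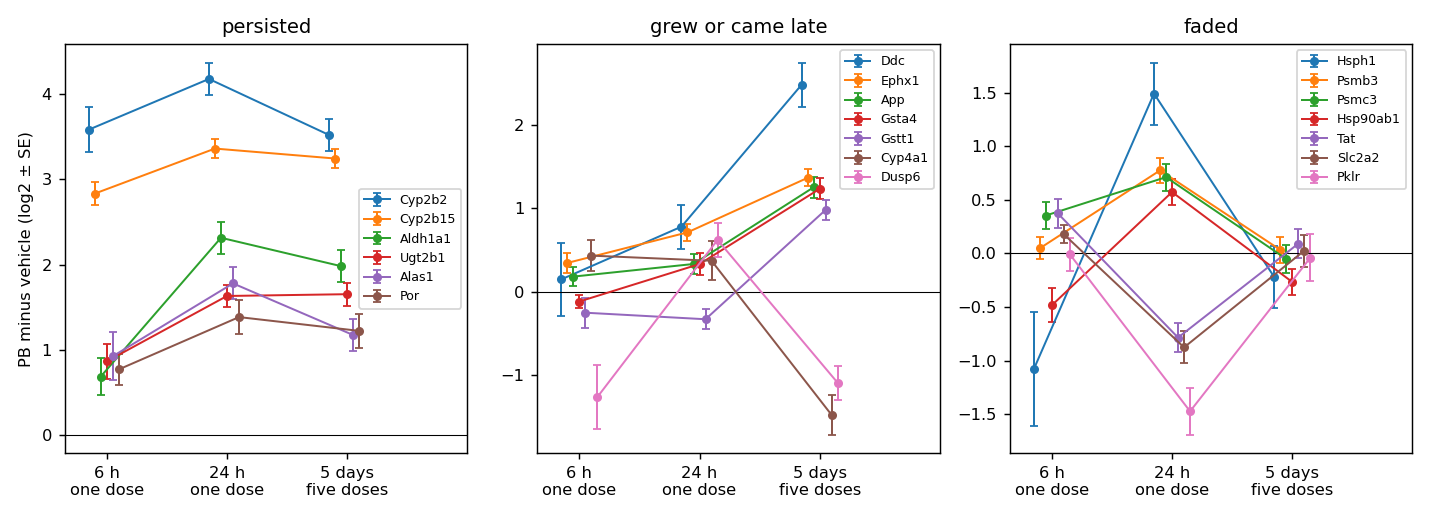
PB minus vehicle differences in log2 ± SE are drawn at 6 h and 24 h after 1 dose and 24 h after the last of 5 doses, for genes that persisted, grew or came late, and faded. The Cyp2b genes are high at all 3 times, and late genes such as Ddc and Ephx1 are highest after 5 doses. Faded genes stand away from 0 at 24 h and lie nearer it after 5 doses. At 6 h Hsph1 (-1.08) and Hsp90ab1 (-0.48) lie below 0, opposite to their 24 h effects, without a call.

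A second compound of the same study, named PCN in the labels and given at the same dose and times, shared these vehicle rats. The difference between 5 doses and 1 was compared directly between PB and PCN rats, which cancels the vehicle, and 275 probe sets (166 genes) passed. The same PB arrays enter the interaction, so the genes the 2 comparisons share are no second test. Sds differed by 6.95 ± 1.17 (adjusted p = 1.6e-04), Gstt1 by 1.18 ± 0.20 (adjusted p = 2.0e-04), Hsph1 by -2.08 ± 0.42 (adjusted p = 0.0013) and Decr1 by -0.73 ± 0.14 (adjusted p = 8.6e-04), PB minus PCN. In the main fit PB rats alone differed between 5 doses and 1 by 4.69, 0.84, -0.40 and 0.08 in the same order. The PB minus PCN values thus also hold the shift of PCN rats, most of all for Hsph1 and Decr1. The shift of Ephx1 was not called as different (-0.03 ± 0.15, adjusted p = 1), nor did that of Tkt (0.16 ± 0.19) pass. PCN's own interaction called 41 probe sets (20 genes). The PB and PCN interactions share their vehicle rats, so the direct comparison is the one to read.

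Markers of other liver cells were read beside these results. Of 8 measured macrophage markers, 2, Cd14 and Lyz2, were higher after 5 doses of PB, beside 3.8% of all genes. That count was 1 or 0 with any of 14 single arrays left out, and 0 of the 8 markers passed after 1 dose or in the interaction. Their summed level was 11.46 to 12.01 (median 11.76) after 5 doses of PB and 11.11 to 11.75 (median 11.57) in vehicle rats. After 1 dose it was 10.65 to 12.17 (median 11.32) in PB rats and 11.08 to 11.98 (median 11.52) in vehicle rats. Blood cell markers summed to 11.10 to 12.99 (median 12.24) after 5 doses of PB, the lowest of the sets, against 12.03 to 13.15 (median 12.85) in vehicle rats, and after 1 dose to 12.22 to 13.29 (median 12.82) in PB rats and 11.96 to 13.45 (median 12.57) in vehicle rats. Among the 8 measured blood cell markers 2, the globins Hbb and Hbb-b1, passed as lower after 5 doses, beside 3.46% of all genes. This count was 1 or 0 with any of 23 single arrays left out. Of 16 stellate cell and fibroblast markers 1, Vim, passed in the interaction as higher, beside 0.76% of all genes. The call of Vim was kept with 22 of 40 single arrays left out. The part of such cells in the results was not tested.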

How the data were processed

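Liver RNA of 40 rats was measured on one-colour arrays, 5 rats in each of 8 groups of treatment, number of doses and sex, grouped by the sample titles. The authors deposited a linear intensity for each probe set, with some values below 0. How they were made from the scans is not given in the sources used here. Per the labels' protocols, total RNA was copied to biotin-labelled cRNA.

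From these, the 40 arrays were quantile normalised, and log2 of the value plus 16 was taken with anything below 0 raised to 0. Another 12 columns of the table belong to other studies and were not used. After 59 control probe sets were left out of 8799, 8740 were fitted with limma 3.58.1 in R 4.3.3 (4 group means and a term for the number series, which is sex, then eBayes), with Benjamini-Hochberg adjustment over all 8740. Tests are two-sided. The fit was tested on simulated data. Of the probe sets 7018 carried 1 gene symbol, 308 several and 1473 none in the platform annotation, in which symbols can be old. The 6 h effect was fitted on its own 19 arrays, and the comparison with PCN on the 60 arrays of both compounds and vehicle at the 2 later times. Figures were drawn with Python 3.11.15, pandas 2.3.3 and matplotlib 3.10.9.

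The genes, the 37 gene lists and the comparison itself were chosen with earlier results of these data known. Genes named are a set of key genes of drug metabolism and liver function (10 of them without a probe set of 1 symbol), the 15 largest rises and falls of the interaction, the 10 largest effects of each class and up to 4 called members of each list. Genes given only as the members of a count were named after their values were seen. Lists are described by counts and medians, with no test of a list. Settings changed singly were the pseudocount (1 or 64), median scaling, quantile normalisation over all 90 arrays of the study, leaving out the lowest 33.3% of probe sets, trend and robust moderation, 8 group means, a block by place of the rat number, no term for sex, each sex alone, 1 fit over the study, and each array left out.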

Additional observations from a re-analysis of the deposited data

Results flagged for a closer look

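The difference between the effects after 5 doses and after 1 was tested directly and called in 68 genes, and that between the shifts of PB and PCN rats in 166. Among those shown above, the late rises had interactions of 1.70 for Ddc, 1.32 for Pfkfb1, 1.31 for Gstt1, 1.00 for Ldhd, 0.92 for App, 0.90 for Gsta4, 0.71 for Tkt, 0.65 for Ephx1 and 0.54 for Sec61b. The falls classed as grown or late had -1.85 for Cyp4a1, -1.71 for Dusp6, -1.23 for Fkbp4, -1.10 for Abcb4, -0.91 for Hadhb, -0.78 for Decr1, -0.55 for Alad and -0.45 for Lcat. That class compares 24 h after 1 dose with 5 doses, and Dusp6 and Fkbp4 were also below vehicle at 6 h, without a call. Effects that faded had 4.60 for Sds, 1.43 for Pklr, 1.02 for Pdk1, 0.90 for Slc2a2, 0.88 for Tat, -1.71 for Hsph1, -0.84 for Hsp90ab1, -0.76 for Psmc3 and -0.74 for Psmb3. Effects of opposite sign had 1.97 for Fabp5, -2.53 for Eci1 and -1.08 for Acaa2.

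Single rats that stood far from the other 4 of their group and sex were looked for in 312 groups of the genes shown, and 11 were found. Chance gives about 5% of groups, and 11 of 312 is a smaller share, so these are no excess. After 5 doses of PB these were male 4012 for Gstt1 (7.02, low), male 4015 for Ldhd (8.54, high), male 4014 for Decr1 (9.19, low) and female 4511 for Fabp5 (7.19, low). After 1 dose of PB they were female 4507 for App (8.82, high), female 4510 for Hadhb (8.68, low) and male 4008 for Alad (10.06, low). Among vehicle rats they were male 1015 for App (8.75, high) and male 1012 for Psmb3 (9.66, high) after 5 doses, and male 1008 for App (7.71, low) and female 1510 for Ugt2b1 (9.88, high) after 1. Of these genes Ugt2b1 was not called in the interaction, and the calls of the other 8 were kept with any single array left out.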

How the results depend on the processing

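The counts here are probe sets. With each array scaled to its median in place of quantile normalisation, the interaction called 67, the shift of vehicle rats 116, and the classes that faded and grew held 30 and 34. Without the term for sex these were 73, 116, 35 and 34. In males alone the interaction called 0 and in females alone 30. The effect after 5 doses gave 298 in males and 189 in females, that after 1 dose 133 and 310, and the vehicle shift 69 and 5. In the same order 67 and 56 persisted, 0 and 17 faded, and 0 and 13 grew. The PB minus PCN shift called 27 in males alone. A difference of the interaction between the sexes was called in 2 when all arrays of the PB and PCN study were fitted together. At 6 h, 73 were called with sex and treatment groups kept apart, and 22 with rat 1003. The effect on Scd2 after 5 doses turned to -0.12 in males alone. Each single array left out in turn gave 84 to 130 for the interaction, 479 to 626 after 5 doses, 450 to 590 after 1, 150 to 227 for the vehicle shift, up to 189 persisted, 41 (without PB female 4506) to 69 (without PB male 4008) faded, 38 to 67 grew, and 215 to 318 for PB minus PCN. The sexes differed in 0 to 2, with 1 called without rat 1006, 4011 or 4509 and 2 without rat 1506 or 4507. At 6 h the range was 24 to 69, with 24 without rat 1504 or 4001, 25 without 1502, 26 without 4503 and 69 without 4505.

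Rat numbers run alike in each group, and with the place of the number as a replicate block the interaction called 151, the effect after 5 doses 676, that after 1 dose 640, the vehicle shift 240, persisted 213, faded 76, grew 71, the sex difference 0 and the PB minus PCN shift 375. Same-place rats correlated at 0.122 on average (-0.0812 to 0.32, with 35 of 60 pairs over 0.1). Pairs from other places correlated at -0.0303 (-0.267 to 0.278, with 30 of 240 over 0.1). Same-place rats were thus somewhat more alike. What the place stands for is not given in the labels and was not tested, and the main fit held no term for it.

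The genes named above were checked under other settings too. Their status was unchanged in 6187 cases, which include effects called in neither fit, so this is no count of calls kept. A call was gained in 68 cases and lost in 444, and 1 was reversed. Of the 68 genes of the interaction, 40 kept their call with median scaling and 44 without the term for sex. Counts of list members called stayed within 1.5 times in 1629 cases and moved further in 295, and with single arrays left out in 5583 and 337. Giving PB and vehicle rats apart, leaving out arrays at 6 h and counting genes with each array left out were chosen after seeing the data. Arrays give no counts, so the number of rats limits the precision, and 21 to 25.3% of values per array were at or under 0, where differences are understated.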

Other observations

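Some genes of transport and metabolism differed in size between the times without a call in the interaction. Abcc2, the pump that moves conjugates into bile, had an effect of 0.61 ± 0.14 after 5 doses (adjusted p = 0.0039) and 0.04 ± 0.14 after 1, with an interaction of 0.57 ± 0.20 (adjusted p = 0.19). Slco1a4, an uptake carrier of bile acids and drugs, was called after 1 dose, with 0.52 ± 0.17 after 5 doses and 1.03 ± 0.17 after 1 (interaction adjusted p = 0.44). Cyp3a9, a P450, showed 0.96 ± 0.36 and 1.72 ± 0.36, the second of which was called. Akr7a3, the aflatoxin aldehyde reductase, was called at both times with 1.67 ± 0.18 and 0.87 ± 0.18 (interaction adjusted p = 0.13).

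Igfbp1, a binding protein of insulin-like growth factors that insulin holds down, was at 0.52 ± 0.50 after 5 doses and -1.89 ± 0.50 after 1, called at the second, and its interaction of 2.41 ± 0.70 had an adjusted p of 0.084 in limma. Cyp7a1, the rate-limiting enzyme of bile acid synthesis, was at -0.11 ± 0.55 and -1.84 ± 0.55, and the call after 1 dose was lost with any of 9 single arrays left out (adjusted p up to 0.066). The antioxidant response element TGACNNNGC (GCNNNGTCA on the other strand) stood in 7 of 17 promoters of NRF2 targets, in 10.1% of all promoters, in 6 of 31 promoters of genes that grew or came late, in 14 of 94 of persisted genes and in 0 of 29 of faded genes. These are counts of letters in the 250 bases before the start of transcription and were not tested.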
